A study of Homo sapiens with 24 samples.

Results

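The comparison set SUM149PT cells against SUM190PT cells after 48 h of treatment with CG-1521, a histone deacetylase inhibitor by the series title. Its members were chosen by the array titles: 3 arrays of SUM149PT given 7.5 µM CG-1521 and 3 arrays of SUM190PT given 5 µM, 6 of the 24 arrays in all. Both are established lines from inflammatory breast cancer, and both lack the estrogen receptor and carry mutated p53 according to the labels. The other 18 arrays held both lines in vehicle (ethanol and DMSO), in 10 nM 17β-estradiol, and in estradiol together with CG-1521, with 3 arrays in each group from 3 independent experiments. SUM149PT grew and was treated in medium with serum. SUM190PT was plated with serum and treated in a serum-free medium that also held transferrin, triiodothyronine, selenite, ethanolamine and albumin. Line, dose and medium therefore differed together and cannot be told apart in any value given here. Each line stands for 1 tumour.

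Histone deacetylases remove acetyl groups from histones and from many other proteins, and their inhibitors raise and lower the transcription of many genes at once. Breast cancer lines fall into luminal types, which keep genes of the hormone-responsive and secretory epithelium, and basal types, which keep genes of the outer, contractile and stem-like layer and often some mesenchymal genes. The question here was how far 2 lines of different type still differed when both carried the drug. In bulk RNA such as this, fewer cells of a kind and less RNA per cell cannot be told apart.

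All differences are log2 values, SUM149PT minus SUM190PT, so that 1 is a 2-fold difference and a positive value means more signal in SUM149PT. A gene was called where limma's Benjamini-Hochberg adjusted p, over 18417 genes, was under 0.05, and a gap is a called difference of at least 2-fold. The deposited values of the second treated SUM149PT array ran from 1.84 to 13.89, with a lower quartile of 3.78 and a median of 5.44, and the other arrays were alike; a gene near 4 is thus among the dimmest of its array. No detection limit was used, so no fold is given against such a level, and a difference against it may be smaller on this scale than in the cells. Across genes, arrays of a group correlated at 0.9954 to 0.9958 in treated SUM149PT and 0.9884 to 0.9902 in treated SUM190PT. The median SD between the 3 arrays of a gene was 0.100 in the first and 0.150 in the second. The second SUM190PT array under CG-1521 stood apart in places: its median over 21 heat shock genes was 9.80 against 11.15 and 11.39, and its median over 29 mitosis genes was 6.73 against 5.62 and 6.20. The median of all genes lay 0.103 higher in SUM149PT than in SUM190PT under CG-1521 and 0.015 higher in vehicle. Of 10 fibroblast markers 2 were higher and 2 lower in treated SUM149PT, with summed log2 values of 46.3 to 46.9 against 44.6 to 45.0. Of 9 leukocyte markers 1 was higher and 2 lower (36.7 to 37.3 against 36.6 to 37.6), and of 7 endothelial markers 1 was higher and 1 lower (32.4 on its lowest and highest array against 32.0 to 32.8). Only the protease gene FAP among these 26 markers had a gap (2.27, SE 0.102).

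The treated lines differed in about as many genes as the untreated ones, with fewer large gaps. Under CG-1521, 8772 of 18417 genes were called, 47.6% of those tested, with 4610 higher (25.0%) and 4162 lower (22.6%) in SUM149PT. In vehicle 8592 were called (46.7%), with 24.5% higher and 22.1% lower. Gaps were fewer under the drug, with 2663 genes (14.5%) against 3018 (16.4%), and differences of more than 2 log2 units were seen in 654 genes against 794. Under CG-1521 1279 gaps were higher (6.94%) and 1384 lower (7.51%) in SUM149PT, whereas in vehicle 1672 were higher (9.08%) and 1346 lower (7.31%). The SD of the differences over all genes was 0.832 under CG-1521 and 0.904 in vehicle. Centring each array on its own median moved the share of treated calls that were higher in SUM149PT from 52.6% to 41.3%, and that of called changes from 43.7% to 30.0%, so the balance of directions depends on the scaling. With estradiol in the medium the count of gaps was 3204 (17.4%) without CG-1521 and 2514 (13.7%) with it. All 6 treated arrays were split cleanly by line, with no overlap, in 10328 genes (56.1%). Across genes the treated and vehicle differences correlated at 0.828, and the treated difference correlated with the one under estradiol and CG-1521 at 0.979; the genes of these correlations are not independent of each other, and the arrays compared were separate.

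**Figure D1:**
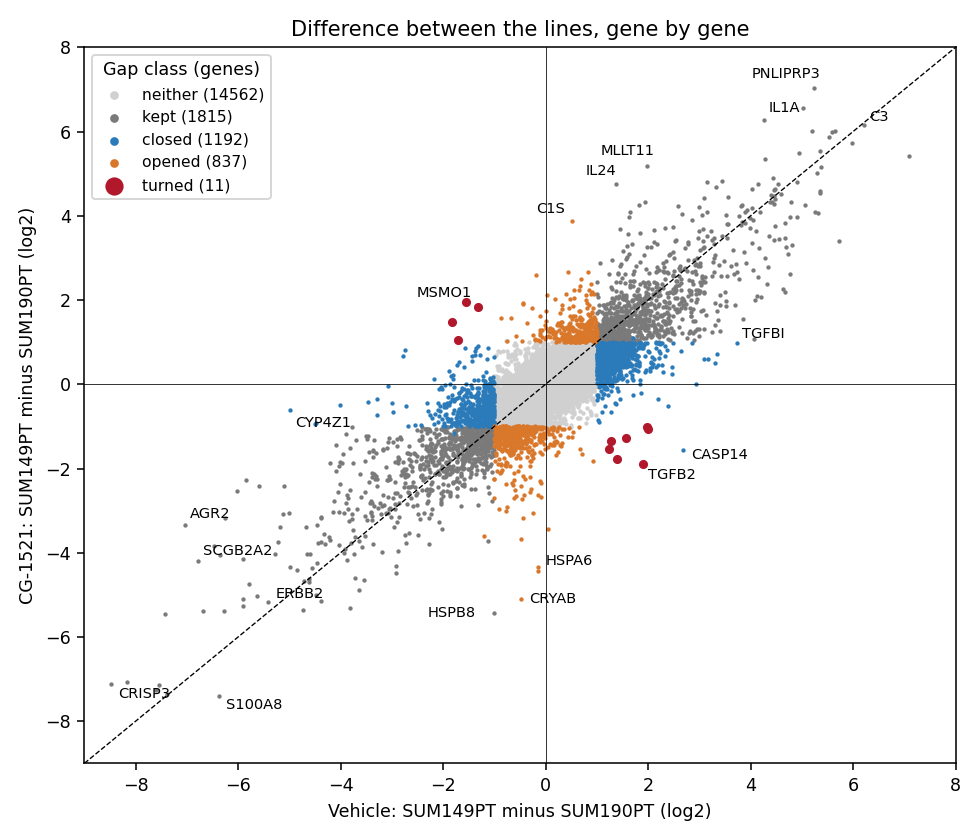
Each point is 1 of 18417 genes, placed by its difference between the lines (SUM149PT minus SUM190PT, log2) in vehicle on the horizontal axis and under CG-1521 on the vertical axis. The dashed line marks equal differences; 1815 genes had a gap of the same direction in both states, 1192 in vehicle alone (blue), 837 under CG-1521 alone (orange) and 11 in opposite directions (red).

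Gaps were sorted by the states in which they were seen. In 1815 genes the gap was present with the same sign in vehicle and under CG-1521, and the median size in these was 1.76 in vehicle and 1.59 under the drug. A gap in vehicle was no longer reached under CG-1521 in 1192 genes, and 719 of these passed the test of the change itself, which is the difference between the lines' responses (limma; of all genes 9.01% changed towards SUM149PT and 11.6% towards SUM190PT, 20.6% together). Another 837 genes had a gap only under CG-1521, 474 of them with a called change, and 11 genes had gaps of opposite sign. These classes were cut from the vehicle and CG-1521 arrays, so the arrays with estradiol give a separate view of them. Of the kept gaps 90.8% were gaps with estradiol alone and 92.6% with estradiol and CG-1521. Of the gaps missing under CG-1521, 70.3% were gaps with estradiol alone and 7.8% with the combination. For the gaps that opened, the shares were 24.5% and 73.1%. Genes can also be chosen on the estradiol arrays alone and then read in the other arrays: 1441 genes with a gap towards SUM149PT there (7.82% of all) had a median of 1.55 in vehicle and 1.18 under CG-1521, and 1763 with a gap towards SUM190PT (9.57%) had −1.31 and −1.08. Chosen instead on the arrays with estradiol and CG-1521, the medians in vehicle and under CG-1521 were 1.53 and 1.48 for 1222 genes (6.64%) and −1.29 and −1.45 for 1292 genes (7.02%).

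Among the genes furthest apart under CG-1521 were several secreted proteins of glands, high in SUM190PT and dim in SUM149PT. S100A8, a calcium-binding alarm protein, read 4.73, 4.75 and 4.69 in SUM149PT and 11.62, 12.17 and 12.61 in SUM190PT, a difference of −7.41 (SE 0.345, n = 3 per line). AZGP1, a zinc-binding glycoprotein of secretory glands, read 4.56, 4.88 and 4.42 against 12.09, 11.85 and 11.98 (−7.35, SE 0.162). Neither gene's arrays overlapped between the lines, and neither difference changed past the threshold from its vehicle value (−6.38 and −7.38). CRISP3, a cysteine-rich secretory protein, was 4.19, 3.97 and 4.66 in SUM149PT and 11.31, 11.33 and 11.51 in SUM190PT; its difference of −7.11 (SE 0.159) was narrower than the −8.49 of vehicle (adjusted p of the change = 0.000145). Of 8 apocrine secretory products 7 were lower in treated SUM149PT and none higher (22.6% of all genes were lower), with a list median of −4.83 against −7.08 in vehicle, and 6 narrowed. MUCL1, a small mucin, differed by −7.06 (vehicle −8.16), the prolactin-induced PIP by −5.46 (vehicle −7.42), and the mammaglobin gene SCGB2A2 by −4.20 (vehicle −6.78), all 3 with called changes. With CG-1521 6 of these 8 genes fell in SUM190PT (14.6% of all genes fell there). LTF, lactoferrin, was at 0.14 and was not called.

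Luminal markers stayed higher in SUM190PT but by less. Of 21 measured members 16 were lower in treated SUM149PT and 0 higher, the same counts as in vehicle, while the list median moved from −2.05 to −1.25; over all genes the median absolute difference was 0.293 under CG-1521 and 0.282 in vehicle. Among all genes 22.6% were lower under CG-1521 and 22.1% in vehicle. The change was called in 10 luminal members, 9 towards SUM149PT and 1 towards SUM190PT. AGR2, a disulfide isomerase of the secretory pathway, made the largest move. Its vehicle arrays read 4.56, 4.43 and 4.31 in SUM149PT and 11.71, 11.38 and 11.31 in SUM190PT. Under CG-1521 they read 8.10, 8.28 and 8.54 against 11.91, 11.47 and 11.55, so that a difference of −7.04 became −3.34 (SE 0.149; change 3.70, adjusted p = 1.2e-10), and AGR2 rose by 3.88 in SUM149PT and had a response of 0.18, not called, in SUM190PT. CEACAM6, a cell-surface adhesion protein, differed by −7.14 (SE 0.293) and stood at 3.40, 4.37 and 3.96 in SUM149PT against 10.89, 10.66 and 11.58. The transcription factor genes SPDEF (−1.88, vehicle −3.76), FOXA1 (−1.80, vehicle −2.88) and EHF (−1.57, vehicle −3.17) kept a gap at a smaller size, each with a called change. GATA3 was at −1.25 and its change was not called. ELF3, an epithelial factor of the ETS family, was at −2.79 (SE 0.195) against −2.05 in vehicle (adjusted p of the change = 0.0596), and AGR3 at −2.16 (SE 0.244). ESR1 was low in both lines, at 4.83, 4.79 and 4.86 against 4.54, 4.55 and 4.60. Its difference of 0.26 was not called (limma, adjusted p = 0.0719), but it was called when only the groups compared were fitted.

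Basal genes were mostly higher in SUM149PT in both states, and several of them changed. Of 10 measured basal markers 7 were higher and 0 lower under CG-1521 (25.0% of all genes were higher), with a median of 1.33 against 1.42 in vehicle (8 higher and 1 lower). Changes were called in 6 members, 2 towards SUM149PT and 4 towards SUM190PT, and 2 vehicle gaps fell below the threshold of a gap. KRT5, a keratin of the basal layer, read 10.26, 10.31 and 10.01 in SUM149PT and 5.58, 5.26 and 5.34 in SUM190PT, and its difference of 4.80 (SE 0.182) lay within its error of the vehicle value of 4.90. LAMB3, a chain of the laminin that anchors epithelium to its basement membrane, read 12.59, 12.54 and 12.73 against 7.27, 6.95 and 7.18 (5.49, SE 0.127; vehicle 4.95). It was thus higher than in vehicle on the arrays of both lines. The integrin gene ITGA6 narrowed to 3.0 (SE 0.175; vehicle 4.28; adjusted p of the change = 0.000791), and P-cadherin, CDH3, stood at 2.11 (SE 0.189; vehicle 1.72). KRT15 moved from −1.13 in vehicle to 0.85 under CG-1521.

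Mesenchymal genes still separated the lines, with a much smaller median. Of 14 measured members 10 were higher and 0 lower in treated SUM149PT, against 12 and 0 in vehicle, and the list median was 1.13 against 3.29. Of all genes 25.0% were higher under CG-1521 and 24.5% in vehicle. The median of the members' own changes was −0.68, so the list median moved further than the typical member. Without the first SUM190PT array the treated list median was 0.91, and without the dimmest 50% of genes it was 2.84. Changes were called in 7 of the 14 members, all towards SUM190PT, where 11.6% of all genes changed that way. SNAI2, a repressor of epithelial genes, kept its distance, with 8.71, 8.70 and 8.59 in SUM149PT, 4.42, 4.17 and 3.97 in SUM190PT and a difference of 4.48 (SE 0.147; vehicle 4.46). The same held for the actin bundler PLS3 at 5.74 (SE 0.0975; vehicle 5.98), whose change was not called. CAV1, the main coat protein of caveolae, fell in SUM149PT and rose in SUM190PT, and read 8.83, 8.87 and 8.60 against 5.14, 5.43 and 5.51 (3.40, SE 0.185; vehicle 5.72). TGFBI, a secreted matrix protein, lost most of a large gap. Vehicle arrays read 10.80, 10.74 and 10.89 in SUM149PT and 7.06, 7.76 and 6.41 in SUM190PT, a difference of 3.73. Treated arrays read 8.44, 8.67 and 8.22 against 7.01, 7.73 and 7.62, and the difference was 0.99. Moesin, MSN, which links actin to the membrane, narrowed from 3.17 to 0.60, N-cadherin CDH2 from 3.40 to 1.26 and vimentin VIM from 3.40 to 2.11. Fibronectin FN1 stood at 4.60 (SE 0.258; vehicle 5.35) with no called change.

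ERBB2, the receptor tyrosine kinase HER2, read 7.15, 6.70 and 6.83 in SUM149PT and 11.89, 12.09 and 12.23 in SUM190PT under CG-1521, a difference of −5.18 (SE 0.129), or 36.1-fold, against −5.41 in vehicle. Its neighbours PGAP3 (−5.27, SE 0.185), GSDMB (−5.03, SE 0.188), the adaptor GRB7 (−4.25, SE 0.168), ORMDL3 (−4.03) and MIEN1 (−3.92) had gaps of like size. Of 16 genes of the region that is amplified with ERBB2 in breast cancer 9 were lower and 2 higher in treated SUM149PT (vehicle 8 and 2). Among all genes 22.6% were lower under CG-1521. STARD3, which lies in the same region, differed by only −0.49. The EGF receptor family was split between the lines. EGFR read 8.40, 8.47 and 8.43 against 6.45, 6.74 and 6.97 (1.71, SE 0.125), down from 2.84 in vehicle (adjusted p of the change = 9.13e-05). EGFR rose by 1.07 in SUM190PT and did not move past the threshold in SUM149PT (−0.05). ERBB3 (−1.82) and ERBB4 (−2.24, SE 0.259) were higher in SUM190PT. Among the ligands the epiregulin gene EREG (3.70, SE 0.185) and TGFA (1.91) were higher in SUM149PT and EGF (−3.57, SE 0.171; vehicle −2.48) was higher in SUM190PT.

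Inflammatory signals made some of the largest differences towards SUM149PT, and several widened. IL1A, the interleukin 1 alpha gene, read 10.12, 10.00 and 10.15 in SUM149PT and 4.07, 3.60 and 3.77 in SUM190PT (6.27, SE 0.112). In vehicle its arrays had read 8.08, 7.91 and 7.85 against 3.64, 3.76 and 3.65, so the difference grew from 4.26 (change 2.01, adjusted p = 2.3e-08). IL1B followed with 9.14, 9.21 and 8.87 against 4.05, 4.49 and 4.26 (4.81, SE 0.140; vehicle 3.16). The neutrophil chemokine CXCL1 stood at 4.42 (SE 0.187; vehicle 3.09), CXCL3 at 2.03 (vehicle 0.19) and the iron-binding lipocalin LCN2 at 2.81 (SE 0.233; vehicle 1.77), all with called changes. Of 18 measured cytokine genes 11 were higher and 2 lower in treated SUM149PT (median 0.85, vehicle 12 and 1, 1.19), where 25.0% of all genes were higher. LIF was one of the lower ones, at −1.72 (vehicle −0.36). Changes were called towards SUM149PT in 5 and towards SUM190PT in 3, the latter only in 1 without the third SUM190PT array.

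Complement gene C3, the central component of the cascade, read 10.61, 10.61 and 10.48 against 4.44, 4.38 and 4.40 (6.16, SE 0.147), and this was the same within error as in vehicle (6.21; adjusted p of the change = 0.889). C1S, a protease that starts the classical pathway, was different. It read 4.82, 5.02 and 4.84 in SUM149PT and 4.43, 4.28 and 4.46 in SUM190PT in vehicle, and 8.44, 8.52 and 8.37 against 4.60, 4.81 and 4.29 under CG-1521. Its difference thus opened from 0.51 to 3.87 (SE 0.137; change 3.37, adjusted p = 1.2e-10). Factor B, CFB, stood at 2.86 (SE 0.168; vehicle 1.48). Of 9 complement genes 6 were higher and 0 lower in treated SUM149PT. Among all genes 25.0% were higher and 22.6% lower, and the 3 of 11 S100 genes that were higher lay near the general share. The S100 family did not share a direction: S100A2 was higher in SUM149PT (3.96, SE 0.255), S100A8, S100A9 (−4.33, SE 0.490) and S100A7 (−1.06, SE 0.326) were higher in SUM190PT, and 3 of 11 were higher and 4 lower in all. TNFSF10, which encodes the death ligand TRAIL, read 3.89, 3.77 and 3.52 in SUM149PT against 10.59, 10.86 and 11.54 in SUM190PT (−7.27, SE 0.249; vehicle −7.61), a difference between those of AZGP1 and CEACAM6 in size. Its receptor genes TNFRSF10A (1.26, SE 0.112) and TNFRSF10B (0.75, SE 0.190) were higher in SUM149PT. Of 9 death receptor and caspase genes 5 were higher and 4 lower (median 0.54), the inhibitor CFLAR at −0.94 among the latter.

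**Figure D2:**
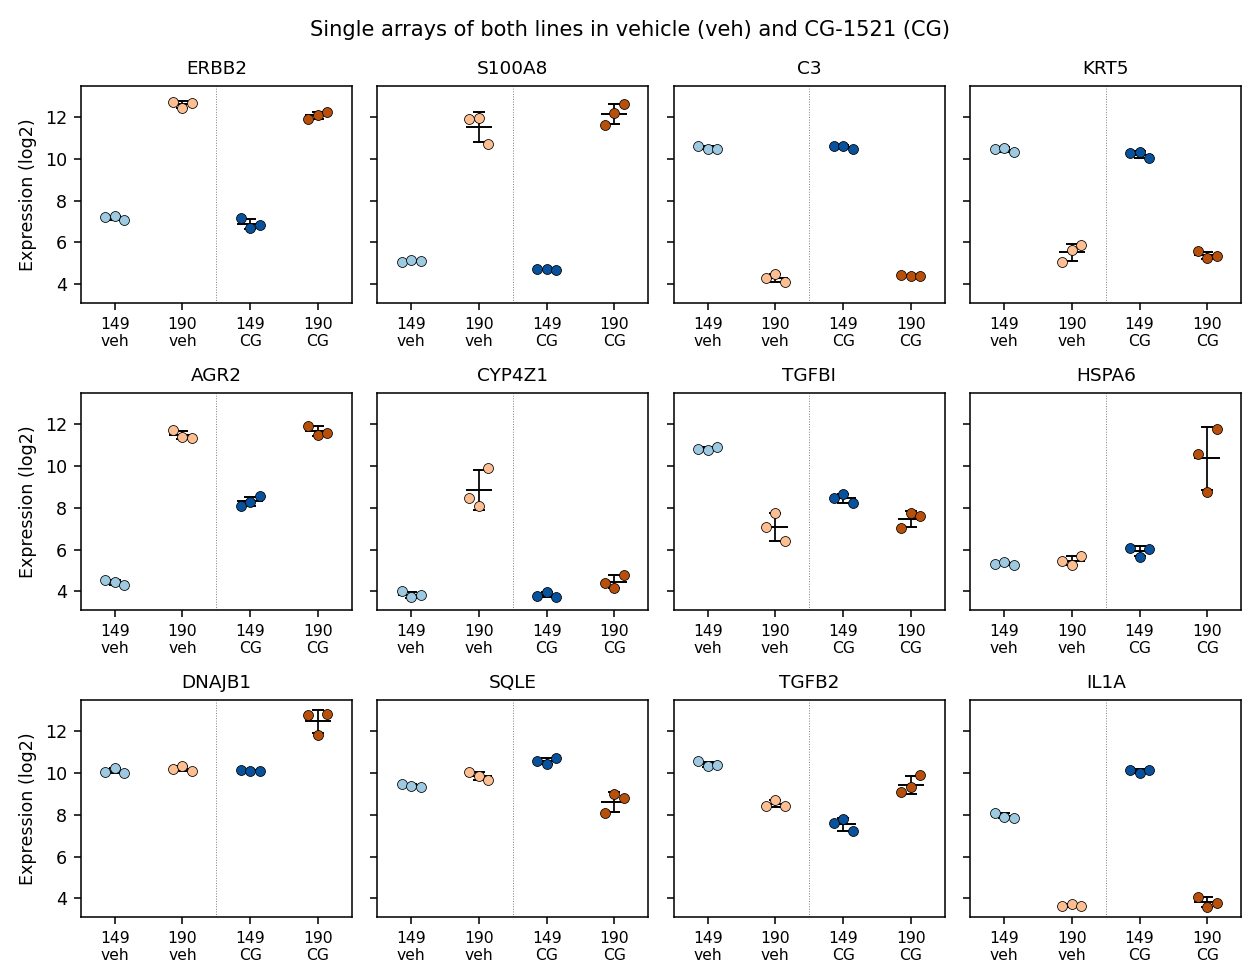
The log2 expression of 12 genes is shown on every array of both lines in vehicle (veh) and under CG-1521 (CG); points are single arrays, bars the mean and SD of 3 arrays, and the lines are named by their number. ERBB2, C3 and KRT5 keep their distance, and S100A8 differs more under CG-1521 than in vehicle, with no called change. AGR2, CYP4Z1 and TGFBI narrow, HSPA6 and DNAJB1 part under CG-1521, SQLE and TGFB2 change sides and IL1A widens.

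Heat shock genes, which encode chaperones that hold and refold damaged proteins, were mostly higher in treated SUM190PT, and in vehicle they had leaned the other way. Of 21 measured members 16 were lower and 0 higher in treated SUM149PT, with a median of −1.06, whereas in vehicle 2 were lower and 10 higher, with a median of 0.28. Among all genes 22.6% were lower under CG-1521. All 21 changes of the heat shock list were called and went towards SUM190PT, where 11.6% of all genes changed that way. With CG-1521, 20 of the 21 genes rose in SUM190PT, where 12.9% of all genes rose, and in SUM149PT 1 rose and 4 fell, where 10.3% of all genes rose and 15.9% fell. Small heat shock proteins led. HSPB8 read 4.09, 4.05 and 4.22 in SUM149PT against 10.11, 8.66 and 9.88 in SUM190PT, a difference of −5.43 (SE 0.293) that had been −1.01 in vehicle (change −4.42, adjusted p = 2.18e-07). CRYAB, alpha-B crystallin, read 3.70, 3.76 and 3.77 against 9.14, 7.60 and 9.80 (−5.10, SE 0.377; vehicle −0.48). The strictly inducible HSPA6 read 6.08, 5.66 and 6.02 against 10.55, 8.76 and 11.75 (−4.44, SE 0.435; vehicle −0.14). The second SUM190PT array was the lowest of its group in each of these 3 genes, and still lay more than 2 log2 units over every SUM149PT array.

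The cochaperone gene DNAJB1 did not move past the threshold in SUM149PT (10.11, 10.10 and 10.09 under CG-1521 and 10.06, 10.24 and 9.99 in vehicle) and moved in SUM190PT from 10.19, 10.30 and 10.07 to 12.74, 11.82 and 12.80. Its treated difference was −2.35. DNAJA4 (−2.92, SE 0.247), BAG3 (−2.63), ZFAND2A (−2.64) and HSPB1 (−2.48) opened likewise. HSPH1, an exchange factor for HSP70, crossed over, from 10.37, 10.46 and 10.56 against 9.40, 9.21 and 8.58 in vehicle to 10.07, 10.02 and 10.24 against 12.15, 11.02 and 12.49 (1.40 to −1.78, SE 0.259). The constitutive HSPA8 differed by only −0.46, and HSP90AB1 (−0.24), STIP1 (−0.16), SERPINH1 (−0.40), HSPA4L (−0.66) and HSPE1 (0.09) were not called. Leaving out the second SUM190PT array gave 19 lower genes and a median of −1.25, and leaving out the third gave 15 and −0.91.

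Heat shock factor binds inverted repeats of the letters GAA, and the promoters of 3 members are shown because all changes of the list had one direction. They are those with the largest differences among the members that have a window here and hold a match, so CRYAB is not shown. The 250 bases before a RefSeq start (GRCh38.p14) are printed 5′ to 3′; DNAJA4 has 3 starts, and the windows of the other 2, not printed, hold 0 matches. Capitals mark matches to GAANNTTC or TTCNNGAA, and overlapping matches run together.
HSPB8, chr12:119178681-119178930, plus strand: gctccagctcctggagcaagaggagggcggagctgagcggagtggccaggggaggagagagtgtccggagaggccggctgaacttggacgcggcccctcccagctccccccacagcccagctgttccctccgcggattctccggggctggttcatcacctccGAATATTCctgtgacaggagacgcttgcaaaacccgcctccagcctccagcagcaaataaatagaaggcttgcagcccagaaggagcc
HSPA6, chr1:161524290-161524539, plus strand: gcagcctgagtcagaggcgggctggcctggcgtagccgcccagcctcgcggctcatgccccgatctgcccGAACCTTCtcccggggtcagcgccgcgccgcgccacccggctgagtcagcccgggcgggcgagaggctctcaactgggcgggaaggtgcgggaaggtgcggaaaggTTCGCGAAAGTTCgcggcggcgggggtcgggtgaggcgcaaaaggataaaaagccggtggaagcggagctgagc
DNAJA4, chr15:78264312-78264561, plus strand: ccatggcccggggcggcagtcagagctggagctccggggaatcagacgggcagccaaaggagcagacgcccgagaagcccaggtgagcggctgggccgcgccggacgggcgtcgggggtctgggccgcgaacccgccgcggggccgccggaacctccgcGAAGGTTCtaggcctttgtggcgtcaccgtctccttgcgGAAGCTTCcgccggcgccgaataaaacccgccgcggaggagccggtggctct
The motifs were searched on both strands in windows of 300 bases, from 250 before to 50 after each start. At least 1 window held a match in 15 of 19 heat shock members with a window (78.9%) and in 14.9% of 14239 genes. Among the 14 such members called under CG-1521 the number was 11. HSPB8 had 1 match in the printed bases and 1 after them, HSPA6 3 and DNAJA4 2. BAG3 and HSPH1, which also opened or turned, had none in this window. A match is a run of letters and not a measured binding site.

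Sterol synthesis genes changed sides. Of 17 measured genes of cholesterol synthesis and uptake 14 were higher and 2 lower in treated SUM149PT (median 1.02), while in vehicle 2 were higher and 13 lower (median −0.83), and 16 changes were called, all towards SUM149PT. Of all genes 25.0% were higher under CG-1521 and 9.01% had a called change towards SUM149PT. Between vehicle and CG-1521, 13 of the 17 rose in SUM149PT, where 10.3% of all genes rose. In SUM190PT 14 fell, where 14.6% of all genes fell. SQLE, squalene epoxidase, read 9.46, 9.39 and 9.34 against 10.02, 9.83 and 9.65 in vehicle and 10.54, 10.41 and 10.69 against 8.07, 8.98 and 8.79 under CG-1521, a difference of 1.93 (SE 0.196; change 2.37, adjusted p = 3.16e-06). MSMO1, a sterol methyl oxidase, turned from −1.31 to 1.83 (SE 0.195) with 11.27, 11.57 and 11.61 against 9.43, 10.05 and 9.48, and HMGCS1, which makes HMG-CoA, from −1.71 to 1.04. IDI1, an isomerase of the isoprenoid units, read 10.30, 10.20 and 10.28 against 8.01, 8.45 and 7.88 (2.15, SE 0.136; vehicle 0.40). INSIG1, a brake on the pathway that is itself a target of sterol regulation, stood at 1.57 (SE 0.169; vehicle −0.86). PMVK (−0.67) and TM7SF2 (−0.53) were the 2 that were lower in SUM149PT. The core letters of a sterol response element, TCACNCCAC on either strand, were in none of 16 members' windows and in 1.51% of all genes' windows, which says only that this spelling is not there.

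Fatty acid genes moved the same way without reaching one side. Of 12 members 5 were higher and 4 lower (median 0.12; vehicle 2 and 9, −1.33), and 10 changes were called towards SUM149PT. The desaturase genes FADS1 (3.33, SE 0.362; vehicle 1.68) and FADS2 (1.48, SE 0.294; vehicle −1.82) and the elongase ELOVL6 (2.78, SE 0.339) were higher in SUM149PT. For FADS2 the treated arrays read 9.39, 9.44 and 9.34 against 7.22, 8.46 and 8.04. Fatty acid synthase, FASN, remained higher in SUM190PT, at 9.63, 9.58 and 9.55 against 10.04, 11.04 and 10.59, but the difference narrowed from −2.43 to −0.97 (SE 0.216).

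**Figure D3:**
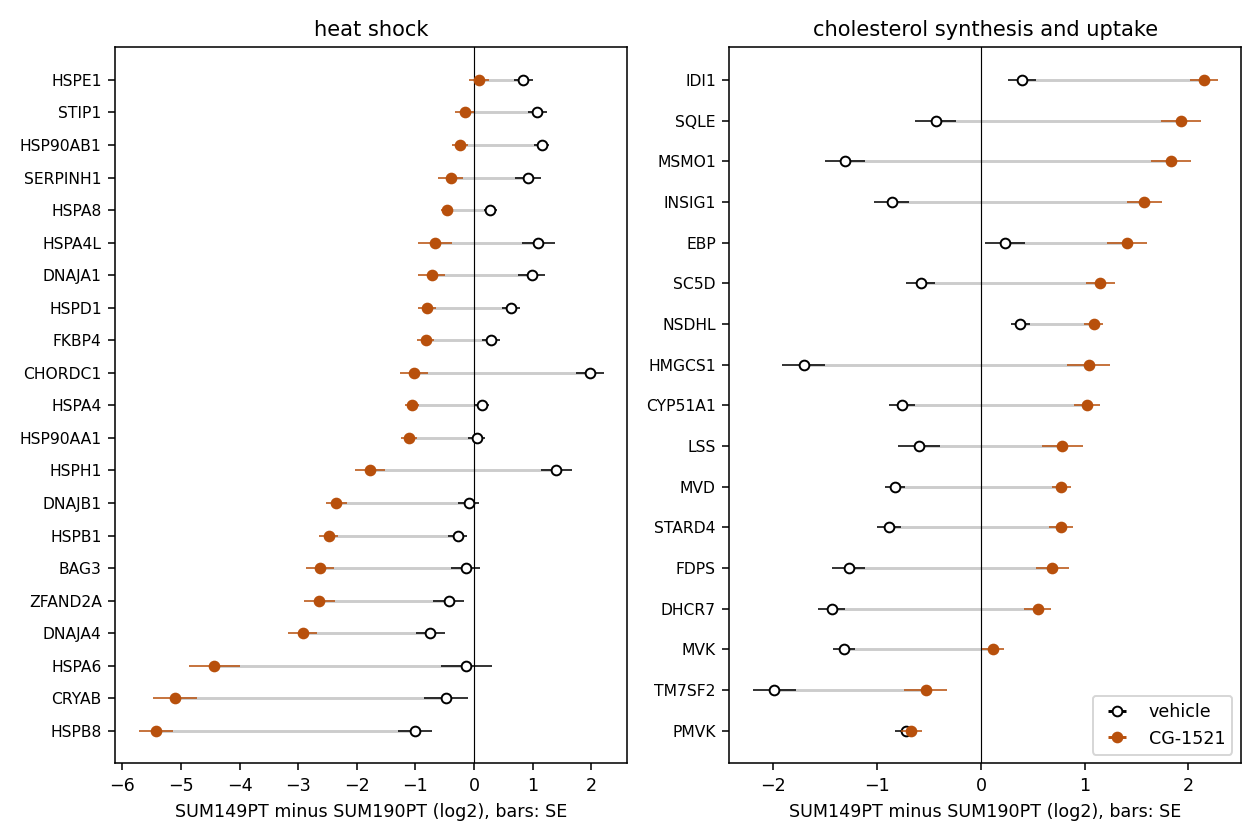
The between-line difference (SUM149PT minus SUM190PT, log2, with its SE) is shown for each measured heat shock gene (left) and sterol gene (right) in vehicle (open) and under CG-1521 (filled). All 21 heat shock genes lie further left under CG-1521, and 16 of the 17 sterol genes pass the test of a move to the right.

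Genes of the other stress responses were split in direction. Of all genes 25.0% were higher and 22.6% lower under CG-1521, and the ATF4 counts of the main fit lay near or under these shares. Of 23 unfolded protein response genes 9 were higher and 6 lower in treated SUM149PT (median −0.09), against 2 and 13 in vehicle (−0.41), and 13 changes were called towards SUM149PT and 1 towards SUM190PT. The chaperone calreticulin, CALR, read 11.25, 11.19 and 11.29 against 9.92, 9.90 and 10.12 (1.26, SE 0.0985; vehicle 0.15). XBP1, whose product drives the response and which is also a luminal gene, stood at −1.84 (SE 0.121; vehicle −2.93), and the stress factor gene ATF3 at −2.25 (SE 0.401) with 6.99, 6.86 and 7.10 against 9.70, 8.41 and 9.58. HSPA5, the main chaperone of the endoplasmic reticulum, was at 0.08 and was not called. Of 13 genes of the ATF4 amino acid response 2 were higher and 3 lower; without the second SUM190PT array 4 were higher. The receptor gene VLDLR stood at −2.97 (SE 0.266; vehicle −3.05), TRIB3 at −0.86 (SE 0.215; vehicle −1.86), PSAT1 at 0.92 (SE 0.244) and asparagine synthetase ASNS at 0.76 (SE 0.224; vehicle −0.34). Among 14 redox genes 2 were higher and 5 lower, although up to 5 were higher when the third SUM190PT arrays of vehicle and estradiol were left out. HMOX1, heme oxygenase 1, read 8.05, 7.40 and 8.12 against 11.10, 10.81 and 9.97 (−2.77, SE 0.261; vehicle −1.05). AKR1C3, an aldo-keto reductase that reduces steroids, turned: vehicle arrays read 5.97, 6.56 and 6.36 against 8.17, 8.47 and 6.91, and treated arrays 10.02, 9.99 and 9.94 against 7.95, 8.61 and 7.53 (−1.56 to 1.95, SE 0.383). The ferritin light chain FTL was at 2.02 (SE 0.125), as in vehicle (1.84).

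Interferon-stimulated genes, which block viral replication, were mostly higher in treated SUM190PT. Of 19 members 11 were lower and 4 higher in SUM149PT (median −0.82), against 5 and 4 in vehicle (−0.08). Of all genes 22.6% were lower and 25.0% higher under CG-1521, and 22.1% and 24.5% in vehicle, so the vehicle counts lay near those shares. In the list 7 changes were called towards SUM190PT and 1 towards SUM149PT, against 11.6% and 9.01% of all genes. IFIT2, which binds viral RNA, read 3.92, 3.74 and 3.52 in SUM149PT against 7.28, 6.41 and 8.55 in SUM190PT (−3.69, SE 0.411), where the vehicle arrays of both lines lay between 3.57 and 4.38. RSAD2, viperin, read 3.74, 3.51 and 3.52 against 5.91, 5.32 and 7.54 (−2.67, SE 0.374; vehicle −0.09), and IFIT1 was at −3.01 (SE 0.480; vehicle −0.77). The SUM190PT arrays spread widely here, with the second again the lowest. Without the third array 9 members were lower, with a median of −0.57. OAS1, a sensor of double-stranded RNA, was low in SUM149PT in both states (−3.39, SE 0.304; vehicle −2.95). IFI44L went the other way, at 6.79, 6.58 and 6.83 against 4.24, 4.66 and 5.12 (2.06; vehicle 1.95), and IFITM1 stood at 1.07 and IFI27 at 0.85. Of 7 antigen presentation genes 5 were higher and 2 lower, the immunoproteasome gene PSMB8 at 1.32 (SE 0.122; vehicle 2.37) and TAPBP at 0.85 (SE 0.131; vehicle 1.41) among the former, B2M (−1.23, SE 0.135) and NLRC5 (−0.99, SE 0.135) being the latter.

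Promoters of 3 interferon genes are printed, chosen like those above among members with a window and a match, and they differ in direction: IFIT1 and RSAD2 were higher in SUM190PT and IFI44L in SUM149PT. Shown are the 250 bases before a RefSeq start (GRCh38.p14; RSAD2 has a further start, not printed, whose window holds 1 match), 5′ to 3′, with matches to GAAANNGAA on either strand in capitals.
IFIT1, chr10:89392373-89392622, plus strand: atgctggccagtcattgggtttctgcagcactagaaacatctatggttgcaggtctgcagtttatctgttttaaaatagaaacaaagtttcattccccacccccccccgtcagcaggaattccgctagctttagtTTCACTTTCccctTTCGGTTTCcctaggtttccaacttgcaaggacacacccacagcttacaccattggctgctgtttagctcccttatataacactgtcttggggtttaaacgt
RSAD2, chr2:6877527-6877776, plus strand: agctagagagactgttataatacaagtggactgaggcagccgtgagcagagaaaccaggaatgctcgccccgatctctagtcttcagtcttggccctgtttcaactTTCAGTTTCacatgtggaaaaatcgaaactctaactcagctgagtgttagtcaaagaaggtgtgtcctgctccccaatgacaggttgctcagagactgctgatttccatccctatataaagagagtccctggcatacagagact
IFI44L, chr1:78620198-78620447, plus strand: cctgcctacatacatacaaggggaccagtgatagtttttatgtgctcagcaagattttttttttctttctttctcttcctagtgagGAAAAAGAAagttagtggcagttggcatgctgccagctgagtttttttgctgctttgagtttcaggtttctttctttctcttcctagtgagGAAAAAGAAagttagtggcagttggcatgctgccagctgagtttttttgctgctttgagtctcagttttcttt
In windows of 300 bases these letters were found in 12 of 15 interferon members with a window and in 9.15% of 14239 genes. They were in 9 of the 12 such members called under CG-1521. Members of both directions held them, as the printed promoters show, and IRF1, IRF9 and OAS1 had none in this window.

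Cell division genes were higher in SUM149PT by about as much as before treatment, although they fell in both lines. Of 29 mitosis genes 19 were higher and 0 lower in treated SUM149PT, with a median of 1.19 (vehicle 20 and 0, 1.33), and 0 changes were called. Among all genes 25.0% were higher under CG-1521. All 29 fell with CG-1521 in each line, whereas of all genes 15.9% fell in SUM149PT and 14.6% in SUM190PT. TOP2A, a topoisomerase needed to separate chromosomes, fell from 9.80, 9.85 and 9.92 to 8.06, 7.95 and 8.05 in SUM149PT and from 8.76, 8.46 and 7.65 to 5.45, 6.71 and 5.90 in SUM190PT. Its difference was 2.00 (SE 0.310; vehicle 1.57). The spindle gene DLGAP5 stood at 2.29 (SE 0.446), ASPM at 2.12 (SE 0.285; vehicle 2.12) and cyclin A2, CCNA2, at 1.97 (SE 0.336). In each of these 4 genes the second SUM190PT array was the highest of its group. Without it 24 mitosis genes were higher, with a median of 1.42. The vehicle median was 0.79 when the third SUM190PT arrays of vehicle and estradiol were left out, and 26 genes were then higher under CG-1521 and 1 change was called.

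DNA replication genes differed less, and the count hung on single arrays. Of 25 members 7 were higher and 0 lower (median 0.48), against 11 and 0 in vehicle (0.86), with 0 changes called. Over all genes 25.0% were higher under CG-1521 and 24.5% in vehicle, so the treated count lay near the share of all genes. Without the first SUM149PT array or the first SUM190PT array 3 were higher, without the third SUM190PT array 2, and without the third SUM190PT arrays of vehicle and estradiol 14 were higher and 2 lower. PCNA, the sliding clamp, was at 1.18 (SE 0.342) and the primase gene PRIM1 at 1.02 (SE 0.294). Thymidylate synthase TYMS (1.51, SE 0.544, adjusted p = 0.0256) lost its call when any one of 4 arrays was left out, array 1 or array 3 of either treated line (1.31 to 1.53). FEN1 (1.08, SE 0.365) lost it without the first SUM149PT, the first SUM190PT or the third SUM190PT array (0.92 to 1.00). CDKN1A, which encodes the cell-cycle inhibitor p21, rose by about the same amount in both lines (1.45 in SUM149PT and 1.40 in SUM190PT). Under CG-1521 it read 8.63, 8.32 and 8.43 against 8.03, 7.85 and 8.30. The difference of 0.40 (adjusted p = 0.0267) was not called after centring (0.30) or when SUM149PT array 1 or 3 or SUM190PT array 1 or 2 was left out (0.30 to 0.41). CDKN2A (−1.77, SE 0.189), its neighbour CDKN2B (−1.61, SE 0.144; vehicle −0.71) and GADD45G (−1.79, SE 0.333) were higher in SUM190PT. Of 10 inhibitor genes 4 were higher and 4 lower in SUM149PT; only 1 was higher without the second SUM190PT array, and 1 after centring.

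Among deacetylase and sirtuin genes, HDAC1 differed most. It read 10.66, 10.59 and 10.42 in SUM149PT and 7.85, 8.08 and 7.74 in SUM190PT (2.67, SE 0.188, 6.36-fold), down from 3.74 in vehicle (adjusted p of the change = 0.00589); HDAC1 fell by 0.52 in SUM149PT and rose by 0.55 in SUM190PT. Of 18 deacetylase and sirtuin genes 7 were higher and 3 lower in treated SUM149PT, whereas 25.0% of all genes were higher and 22.6% lower. SIRT5 was at 1.25 (SE 0.124), HDAC6, the tubulin deacetylase, at 0.55 (SE 0.104) and HDAC2 at 0.52, while SIRT1 was at −1.52 (SE 0.106; vehicle −0.62) and HDAC8 at −0.48. Of 11 genes of the opposing enzymes, the acetyltransferases, 2 were higher and 6 lower in treated SUM149PT, where 22.6% of all genes were lower. Their median was −0.42, or −0.24 without the dimmest 50% of genes and −0.52 after centring. CREBBP read 6.99, 6.98 and 7.17 against 9.46, 9.30 and 9.41 (−2.34, SE 0.102; vehicle −1.81), and KAT2B (−2.37, SE 0.179), EP300 (−1.40, SE 0.142) and KAT8 (−0.94, SE 0.0996) were lower as well. Of 16 histone genes 8 were lower and 2 higher, or 5 higher without the third SUM190PT arrays of vehicle and estradiol. H3C11, a histone H3 gene, lay furthest towards SUM149PT of the list. It read 10.21, 10.14 and 9.87 against 4.47, 4.73 and 4.75 (5.42, SE 0.121, vehicle 7.10). The linker histones H1-2 (−1.67, SE 0.199, vehicle −0.27) and H1-10 (−1.23, SE 0.174) and the replacement histone H3-3B (−1.46, SE 0.114, vehicle −0.49) were higher in SUM190PT. Clustered histone genes are near copies of each other, so their array signal may be shared.

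Adhesion genes differed in both directions. Of 19 junction genes 5 were higher and 7 lower in treated SUM149PT. Among all genes 25.0% were higher and 22.6% lower, so the 5 higher genes lay near the general share. The desmosomal genes DSG3 (9.01, 8.97 and 9.07 against 3.97, 4.40 and 4.23; 4.82, SE 0.149; vehicle 3.45), DSC3 (3.97, SE 0.132; vehicle 4.77) and PKP1 (2.34, SE 0.116) were higher in SUM149PT. The tight junction genes CLDN1 (8.10, 8.06 and 8.39 against 11.58, 11.20 and 11.48; −3.24, SE 0.255), CLDN4 (−1.84) and TJP3 (−1.70) were higher in SUM190PT. CDH1, the E-cadherin gene, was at −0.07 and was not called. Of 8 genes tied to inflammatory breast cancer 3 were higher in SUM149PT (CAV1, the receptor kinase AXL at 2.84, SE 0.200, and the lymphatic growth factor VEGFC at 2.03, SE 0.145) and 1 lower (EIF4G1, −0.80, SE 0.117). RHOC (−0.06; vehicle 0.92) and RARRES1 (0.59; vehicle 3.10) were not called under CG-1521, and their changes were.

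The remaining lists showed smaller or mixed differences. Of all genes 25.0% were higher and 22.6% lower under CG-1521, and some counts lay near these shares, such as the 4 of 16 higher glycolysis and hypoxia genes. In the BCL2 family 7 of 14 were higher and 2 lower; the p53 target PMAIP1, or NOXA, was at 2.44 (SE 0.157), the killer gene BCL2L11, or BIM, at −2.24 (SE 0.202) and the survival gene MCL1 at −0.98 (SE 0.102). Tubulins and microtubule regulators had 3 of 16 higher and 5 lower (6 higher without the third SUM190PT arrays of vehicle and estradiol), with MAP2 at −2.32 (SE 0.283), MAPT at −0.89 (SE 0.140) and TUBB6 at 1.49 (SE 0.130). TUBA1A was at −0.90 (SE 0.272), or −0.66 and not called without the first SUM190PT array. Metallothioneins were lower in 5 of 7 and higher in 1, with MT1G at −1.64 (SE 0.156) and MT1X at −1.53 (SE 0.179). Ribosomal protein genes were higher in 13 of 18 and lower in 1 (median 0.54; vehicle 0.47), RPL27 (1.46, SE 0.182) and RPS6 (1.43, SE 0.0942) most, with 0 changes called. Glycolysis and hypoxia genes were higher in 4 of 16 and lower in 5, among them the kinase genes PDK1 (1.52, SE 0.202) and HK2 (−1.18, SE 0.168), BNIP3 (1.19, SE 0.254) and EGLN3 (−1.19, SE 0.211). Respiratory chain genes were higher in 7 of 18 and lower in 4, with NDUFV1 at 1.34 (SE 0.130; vehicle 0.41). Of 10 steroid receptor and estrogen target genes 1 was higher and 4 lower, and the glucocorticoid receptor gene NR3C1 went from 0.75 in vehicle to −0.37 (SE 0.0942; adjusted p of the change = 3.7e-06).

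**Figure D4:**
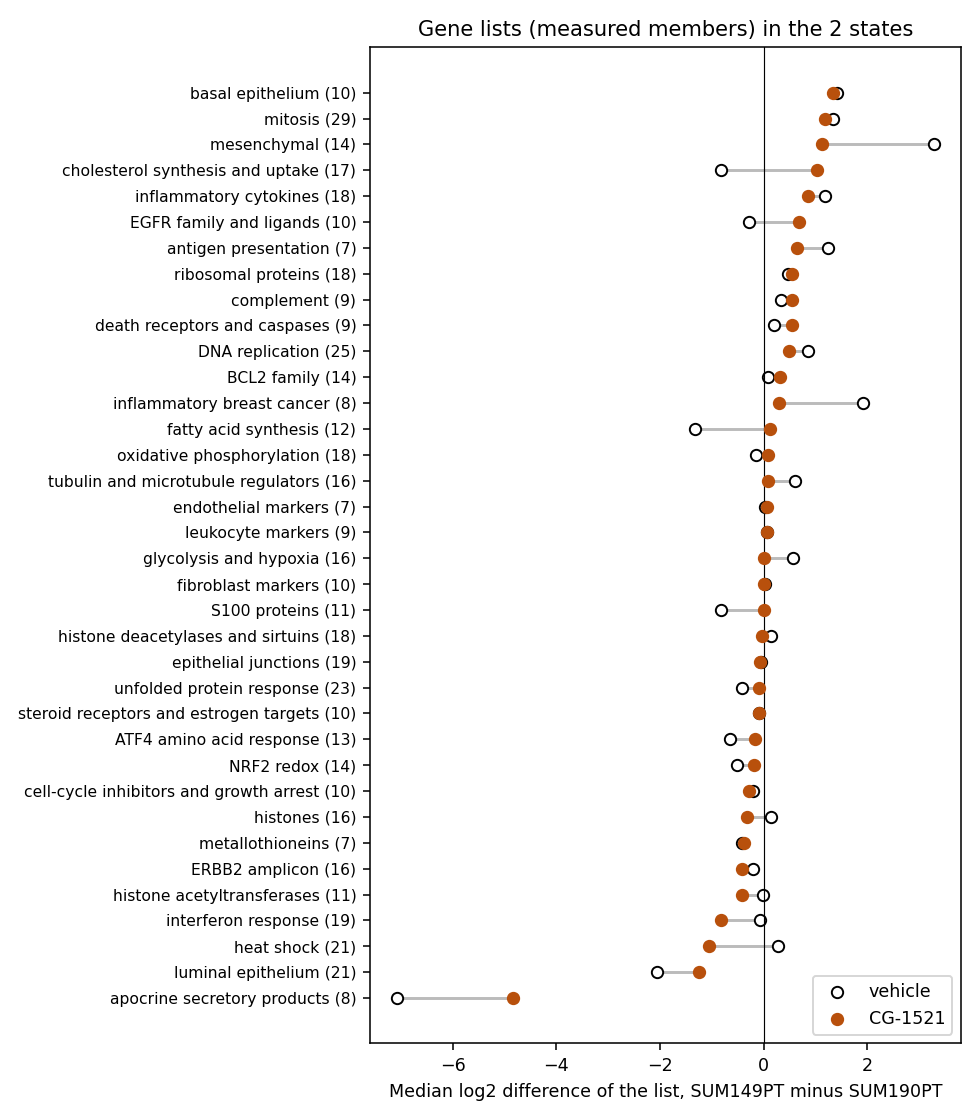
The median between-line difference of each gene list (SUM149PT minus SUM190PT, log2; measured members in parentheses) is shown in vehicle (open) and under CG-1521 (filled). The sterol list crosses from −0.83 to 1.02 and the heat shock list from 0.28 to −1.06, the mesenchymal median drops from 3.29 to 1.13 and the basal, mitosis and ribosomal medians stay close to their vehicle values.

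Other genes with large differences belong to none of these groups. Towards SUM149PT the top was PNLIPRP3, a relative of pancreatic lipase, with 10.17, 10.32 and 10.47 against 2.89, 3.70 and 3.27 (7.03, SE 0.139; vehicle 5.23). FERMT1, kindlin 1, which activates integrins in keratinocytes, stood at 6.56 (SE 0.151), the glutathione transferase GSTP1 at 6.02 (SE 0.117), the adhesion protein CNTN1 at 6.02 (SE 0.187), the aminopeptidase ANPEP at 5.87 (SE 0.118) and ECHDC1, a metabolic repair enzyme, at 5.54 (SE 0.213). MLLT11 rose in SUM149PT from 7.67, 7.85 and 7.68 to 10.83, 10.73 and 10.74 and read 5.58, 5.58 and 5.56 in treated SUM190PT, so that its gap went from 1.97 to 5.19 (SE 0.0978). Towards SUM190PT lay the phosphate transporter SLC34A2 (−5.39, SE 0.361), the tyrosine-breakdown enzyme HGD (−5.38, SE 0.344), the adhesion protein NECTIN4 (−5.37, SE 0.133) and TMC5 (−5.31, SE 0.195; vehicle −3.82).

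Of the gaps that were missing under CG-1521, the changes were largest in CYP4Z1, CASP14, MAGED1, ELAPOR1, LRRC31 and FGB. CYP4Z1, a breast-expressed cytochrome P450, read 8.48, 8.10 and 9.90 in vehicle-treated SUM190PT and 4.41, 4.17 and 4.80 under CG-1521, close to the 3.80, 3.98 and 3.75 of treated SUM149PT; the difference went from −4.99 to −0.61 (SE 0.361, adjusted p = 0.174). The fibrinogen chain FGB (−4.01 to −0.49, SE 0.374), LRRC31 (−4.50 to −0.95, SE 0.253) and ELAPOR1 (−4.48 to −0.92, SE 0.239) also narrowed below the threshold of a gap. Fitting only the groups compared called the treated differences of CYP4Z1 (−0.61) and FGB (−0.49). CYP4Z1 was also called without the third SUM190PT arrays of vehicle and estradiol (−0.61). MAGED1 moved in both lines, from 7.42, 7.46 and 7.36 against 10.07, 10.29 and 10.12 to 9.38, 9.42 and 9.40 against 8.34, 8.72 and 8.70, and ended higher in SUM149PT (0.82, SE 0.118). The caspase gene CASP14 of the skin went from 2.69 to −1.57 (SE 0.674), with overlapping arrays (5.74, 6.15 and 5.59 against 5.49, 7.87 and 8.84), and was called at −2.53 without the first SUM190PT array and at −1.57 to −1.67 under 5 other settings. Besides chaperones, C1S and IFIT2, the largest openings were in BPIFC, a relative of lipid-binding host defence proteins (4.44, 3.89 and 4.10 against 9.35, 8.05 and 8.02; −4.33, SE 0.308; vehicle −0.14), and in the chloride channel gene CLIC2 (3.12, 3.35 and 3.11 against 7.25, 5.65 and 7.02; −3.44, SE 0.309; vehicle 0.05).

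The 11 genes with gaps of opposite sign were TGFB2, AKR1C3, FADS2, HSPH1, MSMO1, ID3, CHORDC1, PHLDB2, THBS1, HMGCS1 and DDX60, and 10 of them were gaps of the treated sign with estradiol and CG-1521. Without the third SUM190PT array under CG-1521 6 genes met the rule. TGFB2, a growth factor that restrains epithelial growth, read 10.54, 10.31 and 10.39 against 8.41, 8.71 and 8.43 in vehicle and 7.60, 7.79 and 7.21 against 9.07, 9.33 and 9.90 under CG-1521 (1.90 to −1.90, SE 0.212). ID3, an inhibitor of helix-loop-helix factors, went from 1.99 to −1.06 (SE 0.250), with 8.01, 7.90 and 7.65 against 8.69, 8.83 and 9.22 under the drug. In neither gene did the arrays of the lines overlap, in vehicle or under CG-1521.

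Gaps also lay side by side along chromosomes. When the 18389 genes that could be placed were put in RefSeq order, 22 runs of 4 or more neighbouring genes had gaps of one direction under CG-1521, 94 genes in all, 18 runs lower and 4 higher in SUM149PT. This rule was set after values had been seen, so the runs are a description. All 94 genes had the same sign in vehicle, 71 had a vehicle gap, and 34 passed the test of the change. Of all 2663 gaps under CG-1521, in runs or not, 1815 had a vehicle gap of the same sign. The test of the change was passed by 493 of those 1815 and by 474 of the 837 gaps seen only under CG-1521. Chromosome 11 held 6 runs and chromosome 17 held 3. One run on chromosome 17 was PGAP3, ERBB2, MIEN1 and GRB7. Another was the repair gene BRCA1 (−4.03; vehicle −3.74) with its neighbours NBR2 (−3.13), NBR1 (−3.07) and TMEM106A (−1.95; vehicle −4.03). On chromosome 11 the cyclin gene CCND1 (−1.41; vehicle −1.89) lay in a run with TPCN2, MYEOV (−4.89; vehicle −3.65) and LTO1, and a further run held FADD (−1.02), PPFIA1 (−1.65), the actin-binding cortactin gene CTTN (−1.07) and SHANK2 (−1.64). AGR2 and AGR3 lay in a run on chromosome 7 with TSPAN13 (−1.84; vehicle −4.01) and the xenobiotic receptor gene AHR (−2.59; vehicle −2.04). The longest run, on chromosome 4, had 6 genes, all higher in SUM149PT: SPCS3 (1.46), VEGFC (2.03), NEIL3 (2.46), TENM3 (2.14), TENM3-AS1 (2.46) and DCTD (1.66); whether the array tells TENM3 from its antisense partner was not tested. DNA copy number was not measured here.

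**Figure D5:**
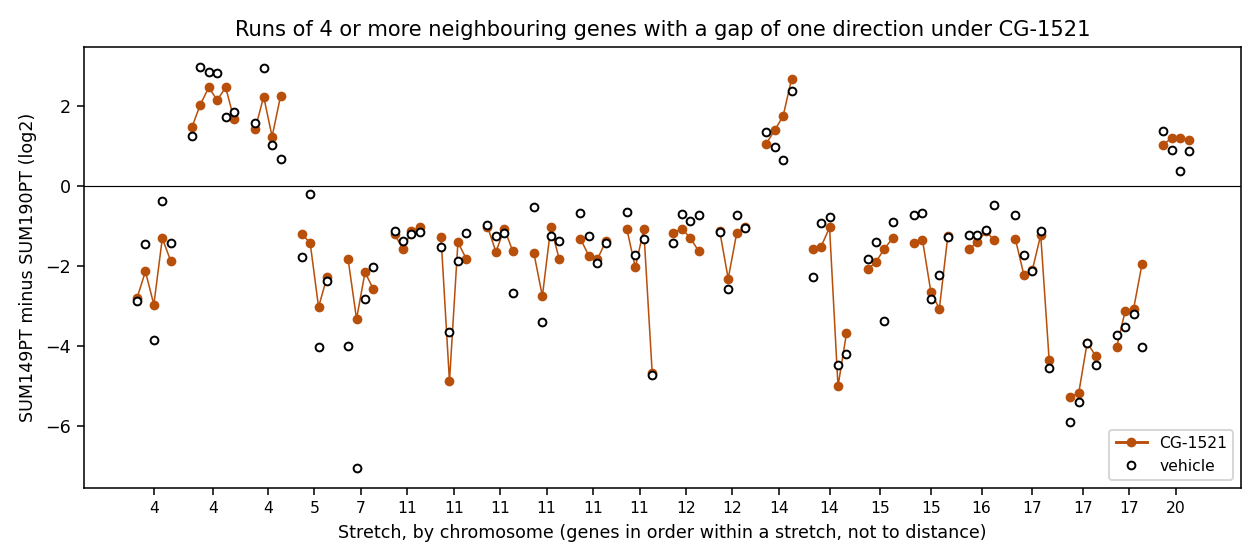
Each connected run of filled points is 1 of the 22 stretches of 4 or more neighbouring genes whose gaps under CG-1521 had one direction (SUM149PT minus SUM190PT, log2), with the vehicle difference of the same gene as an open point. Stretches are ordered by chromosome and genes are evenly spaced; every one of the 94 genes has the same sign in vehicle.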

How the data were processed

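Expression was measured on 24 Affymetrix HuGene 1.0 arrays, with 3 arrays in each of 8 groups of line and treatment; the number of arrays limits the precision. The series design names independent experiments as the source of replicates. The authors deposited log2 values per probe set, made by RMA in Affymetrix Expression Console per the submitters' processing notes; joint or separate normalization of the lines is not given in the sources used here. RMA equalizes the distributions of arrays it takes together, so a shift common to most genes is lost.

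Of 33297 probe sets 19460 named a single gene, 1754 named several and 12083 had no entry in the platform annotation. Of the 19460 probe sets 19429 matched RefSeq by gene identifier, and the rest kept the platform symbol. Together they gave 18417 genes, of which 769 had more than 1 probe set. Differences were fitted with limma 3.58.1 in R 4.3.3 over all 24 arrays as 8 group means, with Benjamini-Hochberg adjustment over all 18417 genes, and the change is the difference between the treated and the vehicle comparison in that fit. Tables were made with Python 3.11.15 and pandas 2.3.3. The fit was tested on simulated data. Promoter windows were taken from RefSeq on GRCh38.p14.

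The members and the 36 gene lists were chosen with earlier results of these data known. Genes were named by a rule: the 12 largest differences in each direction among called genes whose arrays did not overlap, up to 4 members a list by size, the 6 largest changes in each class of gap, and ERBB2, EGFR, ESR1, CDKN1A and HDAC1; uncharacterised loci and small RNAs were skipped. Other list members and neighbours named in the text were chosen after their values were seen. Alternatives were quantile normalization, centring of each array, array weights, a replicate block, dropping dim genes, fitting only the groups compared, limma's treat, leaving out the third SUM190PT arrays of vehicle and estradiol, and leaving out each treated array or, for the change, each vehicle array.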

Additional observations from a re-analysis of the deposited data

Results flagged for a closer look

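The difference between the lines changed with CG-1521 in 3801 genes, by limma's test of the difference between the responses (Benjamini-Hochberg adjusted p under 0.05). The values that follow are such changes for single genes of the report, on the log2 scale, the SUM149PT response minus the SUM190PT response; each passed that test and was at least 2-fold, and no cause was tested.

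Among chaperone genes the change was −4.62 in CRYAB, −4.42 in HSPB8, −4.30 in HSPA6, −3.18 in HSPH1 and −2.17 in DNAJA4. Sterol and fatty acid genes went the other way, with 3.30 in FADS2, 3.14 in MSMO1, 2.44 in INSIG1, 2.37 in SQLE, 1.75 in IDI1, 1.65 in FADS1 and 1.46 in FASN. Stress and redox genes were split: AKR1C3 had 3.51, CALR 1.11, XBP1 1.10, ASNS 1.10 and TRIB3 1.00, while ATF3 had −1.85, HMOX1 −1.72 and SRXN1 −1.26.

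Of genes higher in SUM190PT, those named here that narrowed had changes of 3.70 in AGR2, 1.95 in PIP, 1.38 in CRISP3 and 1.10 in MUCL1. Genes high in SUM149PT that narrowed were FAP (−2.36), CAV1 (−2.32), H3C11 (−1.68), ITGA6 (−1.27), EGFR (−1.13), HDAC1 (−1.07) and PSMB8 (−1.05). Genes high in SUM149PT that widened were C1S (3.37), MLLT11 (3.22), IL1A (2.01), PNLIPRP3 (1.80), IL1B (1.65), FERMT1 (1.55), CFB (1.38), DSG3 (1.37), CXCL1 (1.33) and LCN2 (1.05). In the interferon genes IFIT2, RSAD2 and IFIT1 the change was −3.21, −2.57 and −2.24.

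The largest changes in gaps seen in vehicle alone were 4.37 in CYP4Z1, −4.26 in CASP14, 3.56 in MAGED1, 3.56 in ELAPOR1, 3.55 in LRRC31 and 3.51 in FGB. Gaps seen under CG-1521 alone had −4.19 in BPIFC and −3.49 in CLIC2. TGFB2 (−3.79) and ID3 (−3.06) changed sides. Further changes were −1.49 in TMC5, −1.40 in H1-2, −1.12 in NR3C1, −1.09 in EGF and 1.09 in ERBB4.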

How the results depend on the processing

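Centring each array on its median lowered the share of calls higher in SUM149PT to 41.3% under CG-1521 and to 30.0% for the change. Leaving out single treated arrays gave 7884 to 8385 genes called under CG-1521 and 2581 to 2773 gaps. Called changes numbered 3087 to 3714 without single treated arrays. Over treated and vehicle arrays they numbered 3029 (without SUM149PT vehicle array 2) to 4713 (without SUM190PT vehicle array 1). For the difference under CG-1521, limma's treat, which tests against a 2-fold minimum, called 1246 genes, against 2663 gaps in the main fit. Gaps of opposite sign numbered 6 to 14, with 6 without the third treated SUM190PT array. Fitting only the groups compared gave 8634 genes under CG-1521 and 3134 changes. Without the dimmest 50% of genes 6661 were called with estradiol, and the median absolute difference was 0.492 under CG-1521, 0.518 in vehicle, 0.552 with estradiol and 0.478 with both agents. With that filter the list medians under CG-1521 were −1.80 for luminal, 2.84 for mesenchymal, −3.98 for ERBB2 amplicon, 1.33 for EGFR family, −0.51 for steroid receptor, −5.46 for apocrine, 0.59 for inflammatory breast cancer, −0.24 for acetyltransferase, −0.51 for histone, 1.12 for cytokine, 0.47 for BCL2 family, −0.66 for metallothionein and −0.42 for fibroblast genes, and no leukocyte or endothelial marker was left. Centring gave 1.03 for mesenchymal, −0.38 for cell-cycle inhibitor, −0.14 for deacetylase, −0.52 for acetyltransferase, 0.21 for BCL2 family and −0.04 for endothelial genes, and quantile normalization gave −0.21 for cell-cycle inhibitor and −0.01 for endothelial genes. Leaving out single arrays gave 0.91 to 1.26 for mesenchymal, −0.32 to −0.20 for cell-cycle inhibitor and −0.01 to 0.12 for endothelial genes. Same-numbered treated arrays did not deviate together (correlations −0.013, 0.063 and 0.034), so the numbers were not taken as pairs; with a replicate block 8893 genes were called under CG-1521 (2667 gaps), 8709 in vehicle, 10160 with estradiol, 8406 with both agents and 4032 for the change. Of 2261 single-gene values under alternatives 2209 kept their side of the threshold, 42 lost a call, 10 gained one and 0 reversed. The cause of these shifts was not tested, and dim genes limit what a difference near the floor of the scale can show.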
